A study of Rattus norvegicus with 16 samples.

Results

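The 7 complex I subunits encoded by mitochondrial DNA, mt-Nd1, mt-Nd2, mt-Nd3, mt-Nd4, mt-Nd4l, mt-Nd5 and mt-Nd6, were followed in the hippocampus of young and old rats that had been exercise-trained or had stayed sedentary. The 7 genes were chosen by their Ensembl identifiers, listed with these names for the present work. No measured value entered that rule, but the set was chosen with earlier results of these data known. All 7 were found among the 32754 gene identifiers of the count table, and all 7 passed the filter on low counts that left 15035 genes for testing. The table holds identifiers without names, so the names could not be checked against it.

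The study sequenced 4 groups of 4 male Fischer-344 rats, an inbred strain: sedentary and exercise-trained rats, each at a young and an old age. All carried the wild-type genotype. The labels give the young rats as 6 months old and the old rats as 20 months old, and the protocol gives the same ages for the animals as obtained, before a period of 10 weeks of training or sedentary housing. Hippocampus, a brain region needed for memory, was collected once 2 days had passed since the final behavioral tests, and polyadenylated RNA from the bulk tissue was sequenced.

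Complex I, or NADH:ubiquinone oxidoreductase, is the entry point of electrons from NADH into the respiratory chain and pumps protons across the inner mitochondrial membrane. Its membrane arm is built around the 7 ND proteins made inside the mitochondrion, while all its other subunits are encoded in the nucleus. Mitochondrial DNA is transcribed as long RNAs that are cut into separate messengers: along the heavy-strand transcript the order is mt-Nd1, mt-Nd2, mt-Nd3, mt-Nd4l, mt-Nd4 and mt-Nd5, whereas mt-Nd6 is the ND gene carried by the opposite strand. Hippocampal neurons depend strongly on oxidative phosphorylation for synaptic signalling, and endurance training is widely studied for its effect on mitochondrial content.

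No difference was called. None of the 7 genes passed the test for age or for training, in either direction, and no interval reached a 2-fold difference. Library totals ran from 8630396 to 14576687 counts, and the 7 genes together took between 1.36% and 1.99% of them. The first principal component of all genes placed 8 trained libraries below 8 sedentary ones. Within old sedentary rats, replicate 3 lay at 12.7 on it and the other 3 libraries between 49.7 and 55.9, and the results below were also computed without it. Cell type markers could not be looked up by name, so the tissue label and the cell make-up were not checked. In such bulk tissue, fewer mitochondria-rich cells and less mitochondrial RNA per cell cannot be told apart.

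Levels are given as CPM, the counts divided by library depth after TMM (a correction for differences in library make-up), and each mean is over 4 rats. The summed level of the 7 genes averaged 17297 ± 2018 CPM in young sedentary, 16761 ± 2141 CPM in young trained, 16653 ± 551 CPM in old sedentary and 17562 ± 1595 CPM in old trained rats (SD, n = 4 each). The ranges of the 4 groups overlapped, and single rats reached from 14209 CPM in young trained replicate 4 to 19842 CPM in young sedentary replicate 2. Old sedentary rats were the most alike, with summed levels between 16057 and 17391 CPM.

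**Figure D1:**
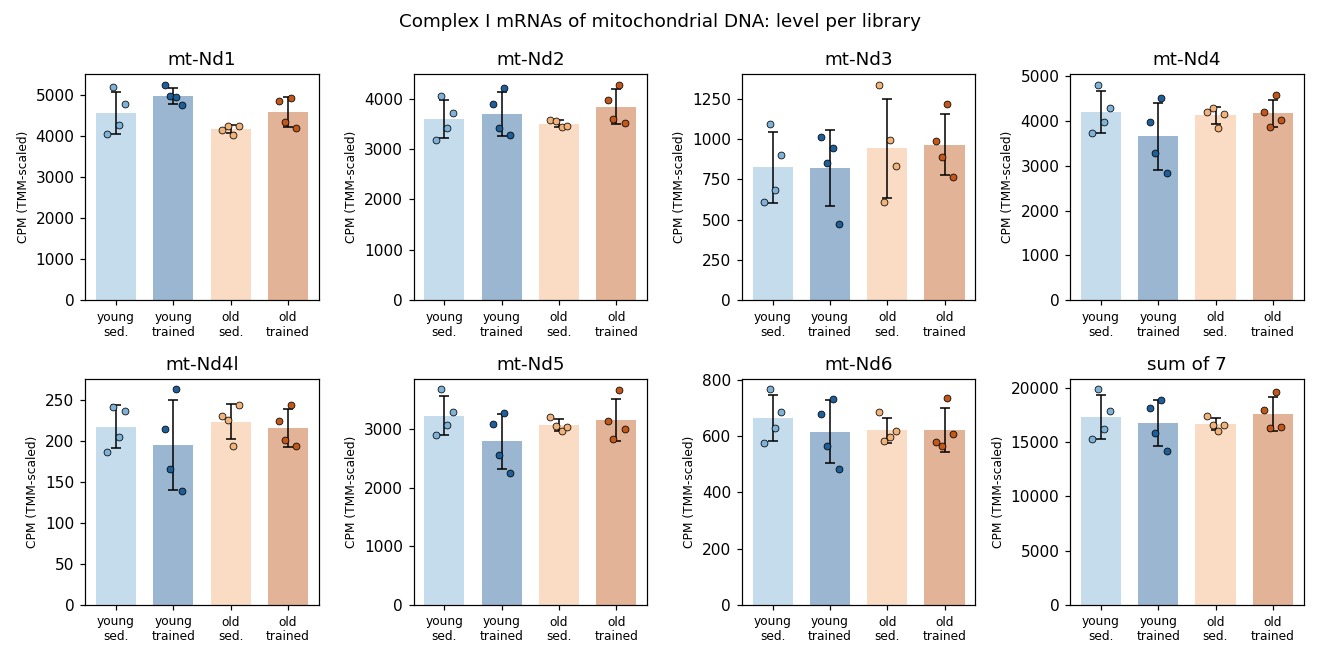
Level of each complex I messenger, and of the 7 summed, in every library, in TMM-scaled CPM (vertical axis, from 0) for the 4 groups (horizontal axis). Points are rats in replicate order, bars are means and error bars the SD of 4 rats. In every panel the groups of each age overlap between training states, and those of each training state between ages. mt-Nd3 is spread most widely, from 476 to 1336 CPM.

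The subunits next to the arm that binds quinone come first. mt-Nd1 (ENSRNOG00000030644) encodes the membrane subunit that lies at the quinone-binding site. In young sedentary rats it stood at 4051, 5200, 4267 and 4778 CPM, and in young trained rats at 5255, 4979, 4955 and 4766 CPM. In old sedentary rats it stood at 4162, 4245, 4039 and 4251 CPM, and in old trained rats at 4869, 4343, 4938 and 4217 CPM. The old sedentary rats were therefore low and close together, but the highest of them passed the lowest rat of both young sedentary and old trained groups. The order of the means was young trained at 4989 ± 201 CPM (SD, n = 4), old trained at 4592 ± 365 CPM (SD, n = 4), young sedentary at 4574 ± 517 CPM (SD, n = 4) and old sedentary at 4174 ± 99.2 CPM (SD, n = 4). Neighbours in that order differed by less than the sum of their SDs.

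For mt-Nd1, the trained-to-sedentary ratio was 1.09 in young rats (95% interval 0.965 to 1.23) and 1.10 in old rats (95% interval 0.973 to 1.24). The edgeR quasi-likelihood test with Benjamini-Hochberg adjustment over all genes gave adjusted p = 0.307 and 0.262. The old-to-young ratio was 0.913 in sedentary rats (95% interval 0.807 to 1.03, edgeR adjusted p = 0.408) and 0.920 in trained rats (95% interval 0.814 to 1.04, edgeR adjusted p = 0.417). mt-Nd1 had the narrowest intervals of the 7 genes.

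mt-Nd2 (ENSRNOG00000031033), an antiporter-like subunit of the proximal membrane arm, averaged 3591 ± 378 CPM in young sedentary, 3694 ± 431 CPM in young trained, 3502 ± 74.0 CPM in old sedentary and 3838 ± 346 CPM in old trained rats (SD, n = 4 each). Old sedentary rats were again tightly grouped, between 3426 and 3578 CPM, inside the range of both young groups and overlapping that of the old trained group. The CPM ranges overlapped in every mt-Nd2 comparison between groups. The ratio farthest from 1 among the mt-Nd2 comparisons between groups was that for training in old rats, 1.10 (95% interval 0.953 to 1.26, edgeR adjusted p = 0.356).

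mt-Nd3 (ENSRNOG00000033615), a small subunit near the hinge between the membrane arm and the peripheral arm, was the least steady of the 7 genes. It stood at 612, 1096, 685 and 904 CPM in young sedentary rats and at 1010, 855, 942 and 476 CPM in young trained rats. In old sedentary rats it stood at 1336, 608, 993 and 831 CPM, and in old trained rats at 991, 890, 1215 and 768 CPM. The highest and the second lowest of the 16 values came from old sedentary replicates 1 and 2, so a single group held nearly the whole range. Young trained replicate 4, at 476 CPM, was the lowest of the 16 libraries.

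In young rats the mt-Nd3 mean was 824 ± 219 CPM in the sedentary and 821 ± 239 CPM in the trained state (SD, n = 4 each). In old rats it was 942 ± 307 CPM in the sedentary and 966 ± 189 CPM in the trained state (SD, n = 4 each), and none of these means differed beyond the spread between rats. The old-to-young ratio was 1.14 in sedentary rats (95% interval 0.771 to 1.69, edgeR adjusted p = 0.753) and 1.18 in trained rats (95% interval 0.795 to 1.74, edgeR adjusted p = 0.636). Without old sedentary replicate 1, the log2 fold change for aging in sedentary rats was -0.03 instead of 0.19. For training the ratios were 0.995 in young rats (95% interval 0.672 to 1.47) and 1.03 in old rats (95% interval 0.693 to 1.52). The intervals thus did not exclude a difference of up to about those bounds in mt-Nd3.

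mt-Nd4 (ENSRNOG00000029707) and mt-Nd5 (ENSRNOG00000029971) encode the large antiporter-like subunits of the distal membrane arm, where protons are pumped farthest from the quinone site. mt-Nd4 stood at 3725, 4804, 3970 and 4280 CPM in young sedentary rats and at 3984, 3296, 4522 and 2830 CPM in young trained rats. It stood at 4190, 4301, 3839 and 4167 CPM in old sedentary rats and at 4203, 3860, 4582 and 4030 CPM in old trained rats. Young trained replicates 2 and 4 were the lowest of the 16 libraries, and young trained replicate 3 was among the highest.

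mt-Nd5 stood at 2897, 3675, 3062 and 3286 CPM in young sedentary rats and at 3088, 2557, 3266 and 2242 CPM in young trained rats. In old sedentary rats it stood at 3208, 3047, 2967 and 3038 CPM, and in old trained rats at 3140, 2837, 3661 and 2993 CPM. As with mt-Nd4, replicates 2 and 4 of the young trained group were the lowest of all libraries, and the other young trained rats lay within the range of the other groups.

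The mean of mt-Nd4 was 4195 ± 466 CPM in young sedentary and 3658 ± 746 CPM in young trained rats (SD, n = 4 each), a ratio of 0.872 (95% interval 0.730 to 1.04, edgeR adjusted p = 0.263). The mean of mt-Nd5 was 3230 ± 337 CPM in young sedentary and 2788 ± 473 CPM in young trained rats (SD, n = 4 each). Its ratio of 0.863 (95% interval 0.731 to 1.02) had an unadjusted p of 0.0801 and an adjusted p of 0.201 in the edgeR quasi-likelihood test, the lowest adjusted p of the 35 tests on these genes. Both values rested in large part on young trained replicate 4. Without that library the log2 fold change of mt-Nd4 was -0.08 instead of -0.20, and that of mt-Nd5 was -0.11 instead of -0.21. Without young trained replicate 3, by contrast, the log2 fold change was -0.29 for mt-Nd4 and -0.27 for mt-Nd5, with edgeR adjusted p-values of 0.0755 and 0.0972. In the same setting that of mt-Nd4l was -0.30 instead of -0.15, with an edgeR adjusted p of 0.113.

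In old rats the means of these genes lay closer together. mt-Nd4 averaged 4124 ± 199 CPM in old sedentary and 4169 ± 309 CPM in old trained rats (SD, n = 4 each), a ratio of 1.01 (95% interval 0.847 to 1.21). mt-Nd5 averaged 3065 ± 102 CPM in old sedentary and 3158 ± 358 CPM in old trained rats (SD, n = 4 each), a ratio of 1.03 (95% interval 0.872 to 1.22). The edgeR adjusted p-values were 0.948 and 0.835.

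mt-Nd4l (ENSRNOG00000031053), a small membrane-arm subunit, is read from the same messenger as mt-Nd4, which it overlaps. No source used here says how reads in that overlap were counted, so the split between these 2 genes is uncertain. mt-Nd4l averaged 218 ± 26.1 CPM in young sedentary, 196 ± 55.1 CPM in young trained, 224 ± 21.3 CPM in old sedentary and 217 ± 23.0 CPM in old trained rats (SD, n = 4 each). In young trained rats it ran from 139 CPM in replicate 4 to 263 CPM in replicate 3, the lowest and the highest of the 16 libraries. Its trained-to-sedentary ratio was 0.899 in young rats (95% interval 0.715 to 1.13) and 0.967 in old rats (95% interval 0.769 to 1.22).

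mt-Nd6 (ENSRNOG00000029042), a membrane-arm subunit, lies on the strand opposite to the other 6 genes. No source used here gives the strand setting of the counting, so its reads and those of antisense RNA across the same stretch cannot be told apart. The sequenced RNA was polyadenylated, and how well that selection captures the mt-Nd6 messenger was not checked. Its counts may therefore be a poor measure of that messenger. It averaged 665 ± 81.9 CPM in young sedentary, 616 ± 112 CPM in young trained, 622 ± 44.7 CPM in old sedentary and 624 ± 78.1 CPM in old trained rats (SD, n = 4 each). The last 3 means were nearly equal, and the first exceeded them by less than its SD. The ratio for training in old rats was 1.00 (95% interval 0.837 to 1.20, edgeR adjusted p = 0.987).

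Whether age was associated with these messengers was asked separately in each training state. In sedentary rats 0 of the 7 genes were called, against 1.51% of all genes tested, and in trained rats 0 of 7, against 4.98%. Such shares come to less than 1 gene in 7. The median log2 fold change of the 7 was -0.04 in sedentary rats, where that of all genes was 0.01, and 0.14 in trained rats, where that of all genes was 0.01. By sign alone, 2 of the 7 were higher in old sedentary than in young sedentary rats, and 6 of the 7 were higher in old trained than in young trained rats, but all 14 intervals included no difference. Deviations of log2 CPM from the group means correlated between members, from 0.60 (mt-Nd1 with mt-Nd4l) to 0.97 (mt-Nd5 with mt-Nd6). The signs of the 7 genes are therefore not separate observations in any comparison. The count and median in trained rats depended on single libraries. Without young trained replicate 4, 4 of the 7 were higher and the median was 0.0041. Without young trained replicate 3 it moved the other way, with 6 of the 7 higher and a median of 0.25. Without old trained replicate 3, 4 of the 7 were higher and the median was 0.069.

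Whether training was associated with them was asked at each age. In young rats 0 of the 7 genes were called, against 17.1% of all genes tested, and in old rats 0 of 7, against 24.1%. Among 7 genes such shares come to between 1 and 2 genes, so a count of 0 does not set these genes apart. The median log2 fold change was -0.11 in young rats and 0.04 in old rats, beside -0.02 and -0.01 over all genes. Without young trained replicate 4 the median in young rats was 0.0031, and without young trained replicate 3 it was -0.18. Without old trained replicate 3 the median in old rats was -0.027, and 2 of the 7 were higher with training, instead of 6 in the main result. In neither comparison did any of the 7 genes separate the groups completely: the CPM ranges of trained and sedentary rats overlapped for all 7. Over all genes, 25.2% had no overlap in young rats and 21.1% in old rats. Among 7 genes these shares also come to between 1 and 2 genes, so 0 of 7 does not set them apart here either. The corresponding shares for age were 7.93% in sedentary and 17.0% in trained rats, again with 0 of the 7 genes. The age and training comparisons share groups pairwise, so their values are not independent of each other.

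The interaction, the training effect in old rats minus that in young rats, was called for 0 of the 7 genes in edgeR's quasi-likelihood test, beside 0% of all genes. At an unadjusted p below 0.05 the count was 0 of 7, beside 13.5% of all genes. The DESeq2 Wald test and limma voom also called 0 of 7, beside 44 and 0 of all genes. All 7 differences were positive, from 0.01 for mt-Nd1 to 0.26 for mt-Nd5 on the log2 scale, and all 7 intervals included 0. The genes varied together within groups, so these 7 signs are not separate observations. Without young trained replicate 4, 4 of the 7 were positive, and the values were 0.16 instead of 0.26 for mt-Nd5 and 0.10 instead of 0.21 for mt-Nd4. Without young trained replicate 3, 6 of the 7 were positive, and the values were 0.32 for mt-Nd5 and 0.31 for mt-Nd4. For mt-Nd5 the interval ran from -0.08 to 0.60 (edgeR adjusted p = 0.487).

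**Figure D2:**
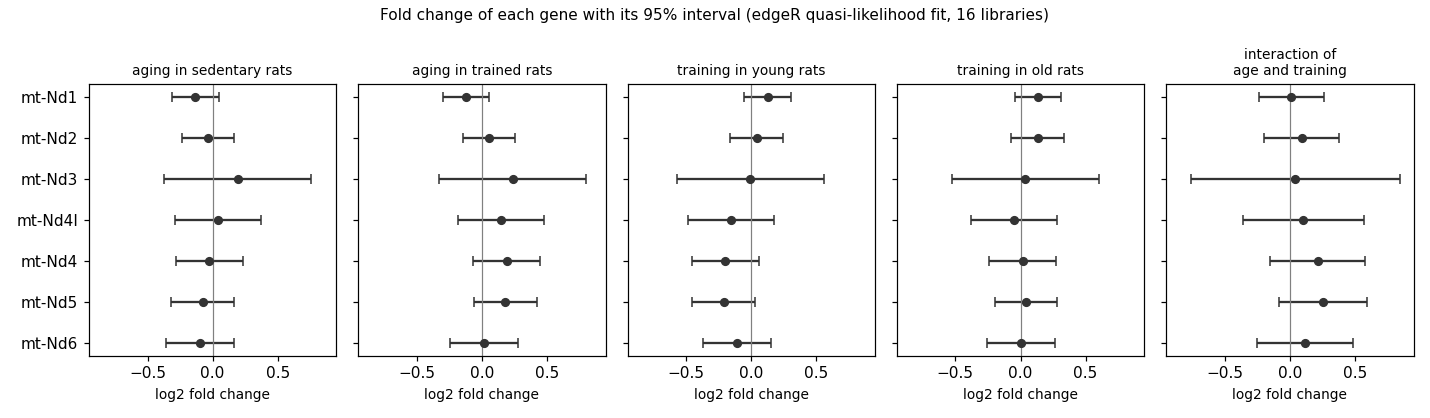
Log2 fold change (horizontal axis) of each gene, listed in the order of the heavy-strand transcript with mt-Nd6 last, in the 5 comparisons. Points are estimates from the fit to 16 libraries and bars are 95% intervals. All 35 intervals cross 0, and those of mt-Nd3 are the widest.

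The intervals give the size of difference that these data leave possible. None of the 35 reached 2-fold in either direction, and 5 reached 1.5-fold, 4 of them for mt-Nd3 and 1 for mt-Nd5 in the interaction. The widest bound for mt-Nd3 was 1.79-fold, in the interaction. Among the comparisons between groups, the widest bound for the other 6 genes was 1.40-fold, for mt-Nd4l with training in young rats. The lowest count of any member was 1783, for mt-Nd4l, where counting alone gives an SD of 2.37%. That is small beside the spread between libraries of a group.

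The genes differed in how steady they were between rats of a group. The within-group SD of log2 CPM, pooled over the 4 groups, was 0.10 for mt-Nd1, 0.13 for mt-Nd2, 0.17 for mt-Nd5, 0.18 for mt-Nd4, 0.19 for mt-Nd6, 0.24 for mt-Nd4l and 0.42 for mt-Nd3. The median over the 819 genes with a mean log2 CPM at least that of mt-Nd4l was 0.14. mt-Nd3 had more spread than 97.4% of those genes and mt-Nd1 more than 29.4% of them. Each gene was also divided by the sum of the 7, which contains that gene. The spread of a gene that makes up much of the sum can fall by that arithmetic alone. After the division the SD was 0.03 for mt-Nd2, 0.04 for mt-Nd5, 0.07 for both mt-Nd4 and mt-Nd6, and 0.13 for mt-Nd4l. For mt-Nd1 it was 0.08, close to its value before, and for mt-Nd3 it was still 0.31.

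**Figure D3:**
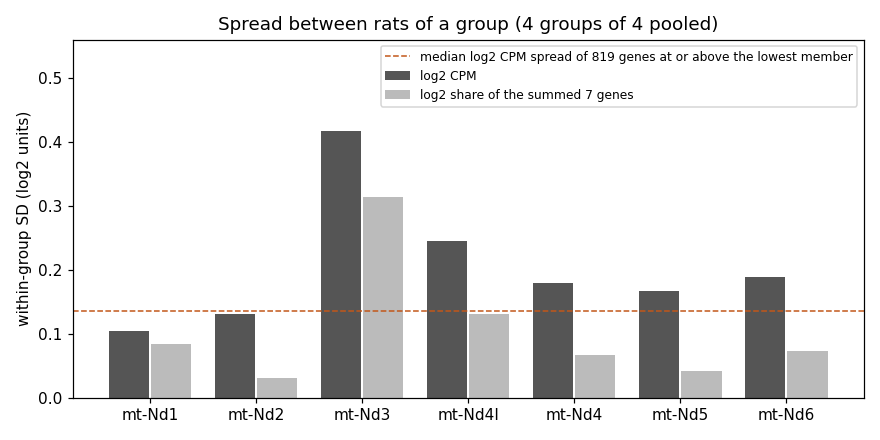
Within-group SD in log2 units (vertical axis, from 0) of each gene's level and of its share in the summed counts of the 7 genes, pooled over 4 groups of 4 rats. mt-Nd3 has an SD of 0.42 in level and 0.31 in share, while mt-Nd2 and mt-Nd5 fall to 0.03 and 0.04 in share.

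The share of a gene in the summed counts of the 7 does not depend on how libraries are scaled, and for 1 of the 7 genes, mt-Nd5, it separated young trained rats from all other libraries, by a narrow margin. mt-Nd5 took 17.0%, 16.2%, 17.3% and 15.8% of the sum in young trained rats, while the 12 libraries of the other groups lay between 17.4% and 19.0%. These ranges did not overlap. Only young trained rats were set against all other libraries in this way, and no share over all genes was computed for such a separation. How unusual 1 gene in 7 is was therefore not tested. mt-Nd1 took 29.0%, 31.5%, 26.2% and 33.5% of the sum in young trained rats, against 23.9% to 27.1% in the other 12 libraries, so 3 of the 4 young trained rats lay above all others and replicate 3 lay among them. mt-Nd4 took 22.0%, 20.8%, 23.9% and 19.9%, against 23.3% to 26.0% elsewhere, so again replicate 3 alone lay within the range of the other groups. For the other 4 genes the young trained range overlapped that of the other 12 libraries: 21.5% to 23.0% against 20.4% to 22.1% for mt-Nd2, 3.35% to 5.58% against 3.67% to 7.68% for mt-Nd3, 0.976% to 1.40% against 1.19% to 1.47% for mt-Nd4l, and 3.41% to 3.88% against 3.23% to 3.94% for mt-Nd6.

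The mean shares of mt-Nd1 were 26.5 ± 0.243% in young sedentary, 30.1 ± 3.15% in young trained, 25.1 ± 0.799% in old sedentary and 26.2 ± 0.874% in old trained rats (SD, n = 4 each). Those of mt-Nd5 were 18.7 ± 0.298%, 16.6 ± 0.717%, 18.4 ± 0.0801% and 18.0 ± 0.611% (SD, n = 4 each) in the same order. Without young trained replicate 4, the young trained mean was 28.9 ± 2.61% (SD, n = 3) for mt-Nd1 and 16.8 ± 0.598% (SD, n = 3) for mt-Nd5. These shares were examined after the levels had been seen, and no test was made of them. A larger share of mt-Nd1 lowers the shares of the other genes by arithmetic, so the shares are not separate measurements.

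**Figure D4:**
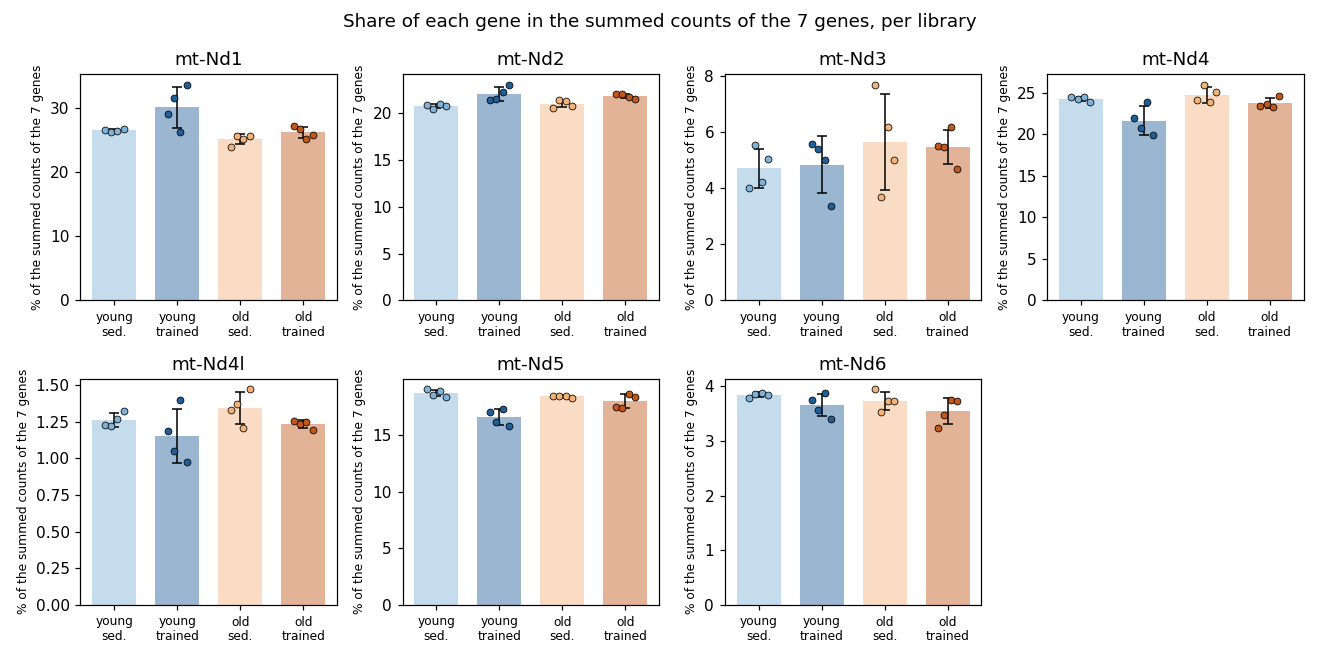
Share of each gene in the summed counts of the 7 genes, in percent (vertical axis, from 0), for every library of the 4 groups. Points are rats, bars are means and error bars the SD of 4 rats. All 4 young trained rats lie below the other 12 libraries for mt-Nd5, with 15.8% to 17.3% against 17.4% to 19.0%.

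Read along the heavy-strand transcript, the log2 fold changes for training in young rats were 0.13 for mt-Nd1, 0.04 for mt-Nd2, -0.01 for mt-Nd3, -0.15 for mt-Nd4l, -0.20 for mt-Nd4 and -0.21 for mt-Nd5, and the value for mt-Nd6 was -0.11. In old rats the same series was 0.14, 0.13, 0.04, -0.05, 0.02 and 0.04, with 0.00 for mt-Nd6. Each of these values had an interval that included 0, and the order along the transcript was not tested. The series in young rats also depended on single libraries. Without young trained replicate 4 it was 0.20 for mt-Nd3, -0.0042 for mt-Nd4l, -0.08 for mt-Nd4 and -0.11 for mt-Nd5. Without young trained replicate 3 it was -0.30 for mt-Nd4l, -0.29 for mt-Nd4 and -0.27 for mt-Nd5.

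Among the 15028 tested genes outside the set, the 4 whose log2 CPM most resembled the log2 of the summed level over the 16 libraries were ENSRNOG00000005158, ENSRNOG00000014975, ENSRNOG00000007127 and ENSRNOG00000020456. Their likeness, measured by the Pearson coefficient over 16 libraries and chosen as the highest among all genes, was 0.83, 0.82, 0.79 and 0.79. The libraries of a group share their treatment and all genes share each library's scaling, so these values only describe the 16 libraries. The files do not pair these identifiers with names.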

How the data were processed

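The deposited values are raw counts per Ensembl gene identifier, 1 column per library, with no normalization, per the file headers and values. Per the submitters' processing notes, the tools were TopHat2 2.1.1, HTSeq, Trimmomatic, FastQC, SAMtools and DESeq2, with the build Rnor_6.0 and no settings. Reads from near-identical nuclear copies of mitochondrial DNA could be split or dropped by such counting. No source used here says how they were treated.

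Counts were tested with edgeR 4.0.16 in R 4.3.3: filterByExpr by group, TMM scaling, 1 mean per group over 16 libraries, glmQLFit (robust) and glmQLFTest, 2-sided, with Benjamini-Hochberg adjustment over 15035 genes and calls at adjusted p below 0.05. Standard errors were the log2 fold change over the root of F, and 95% intervals used the fit's degrees of freedom. Each library is a separate rat, per the labels, so p-values rest on variation among rats. Code was tested on simulated counts.

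The members, comparisons and lists were chosen with earlier results of these data known. The rule for named genes took all 7 members, the 4 genes most like the summed members and, per list and comparison, up to 3 called genes of lowest p. The reference gene table (GRCr8) matched 0 identifiers, so the 15 lists (nuclear complex I subunits, assembly factors, other mitochondrial RNAs, mitochondrial transcription and biogenesis genes, cell type markers) were not tested and gave no named gene, and no sequence or length was used. Levels per gene length were therefore not compared between members. The shares and ratios between members use counts without a correction for length. No pair of libraries of a group agreed within sampling noise.

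Alternatives were DESeq2 1.42.0 size factors and Wald test, limma 3.58.1 voom with quality weights, scaling without the members, no filter, a filter of 1 CPM or more in 8 or more libraries, the replicate number as a replicate block, 1 surrogate variable (sva 3.50.0), each library left out in turn, old sedentary libraries 1, 2 and 4 left out together, and fitting only the 8 libraries compared.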

Additional observations from a re-analysis of the deposited data

How the results depend on the processing

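In all 26 alternatives, and in each of the 5 comparisons they could be fitted to, 0 of the 7 genes were called, and the lowest adjusted p of any member was 0.0755, for mt-Nd4 with training in young rats without young trained replicate 3 (edgeR quasi-likelihood test). Over all genes tested, the counts behind the background shares ran from 3 to 2007 for aging in sedentary rats (227 in the main result), from 237 to 1286 for aging in trained rats (748), from 1289 to 4330 for training in young rats (2572), from 0 to 4510 for training in old rats (3618) and from 0 to 582 for the interaction (0). The counts of called members kept their value of 0, also without old sedentary replicate 3. At an unadjusted p below 0.05 the main count was 0 of 7 in each comparison. Over all genes the shares at that threshold were 19.9% for aging in sedentary and 22.7% for aging in trained rats. They were 33.4% for training in young rats, 35.5% for training in old rats and 13.5% for the interaction. The member count was at most 3 elsewhere, without young trained replicate 3, for aging in trained and for training in young rats. The shares over all genes at that threshold were not computed for the alternatives. With the replicate number as a replicate block 0 members were called in every comparison, so it changed no call of a member. Over all genes tested, the block moved the count for aging in sedentary rats from 227 to 560. The labels do not say that a number marks shared animals, litters or days. Deviations from the group means correlated above 0.1 in 12 of 24 same-numbered pairs (range -0.245 to 0.477) and in 11 of 72 others, and 10 of 16 libraries correlated best with their own number. The rule for pairing, every pair above 0.1, was not met. Its only change of sign among the members was mt-Nd6 for training in old rats, -0.0015 on the log2 scale. Because the fold changes are small, 61 of the 903 recomputed member values changed sign, and 0 of them passed the test.

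Signs of log2 fold changes changed as follows, and the cause was not tested. With DESeq2 size factors and with the DESeq2 Wald test, mt-Nd3 for training in young rats was 0.0012 and 0.0015. With 1 surrogate variable, mt-Nd4l for aging in sedentary rats was -0.026 and mt-Nd2 for training in young rats -0.013. Without old sedentary libraries 1, 2 and 4, which leaves 1 old sedentary rat assumed to vary like the others, mt-Nd4l was -0.17 with age in the sedentary state and 0.16 with training in old rats, and mt-Nd3 was -0.036 for training in old rats and -0.023 for the interaction. In the fit to the 8 libraries compared, mt-Nd6 for training in old rats was -0.0012. With limma voom, mt-Nd6 for aging in trained rats was -0.050, mt-Nd3 for training in young rats 0.061, and mt-Nd1 for the interaction -0.025. For training in old rats it gave -0.023 for mt-Nd4, -0.0051 for mt-Nd5 and -0.031 for mt-Nd6.

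Leaving out 1 library at a time gave these ranges where a sign changed. For aging in sedentary rats, mt-Nd2 ran from -0.090 to 0.025, mt-Nd3 from -0.025 to 0.36, mt-Nd4 from -0.078 to 0.045 and mt-Nd4l from -0.027 to 0.10. For aging in trained rats, mt-Nd2 ran from -0.012 to 0.10 and mt-Nd6 from -0.087 to 0.095. For training in young rats, mt-Nd2 ran from -0.012 to 0.12, mt-Nd3 from -0.12 to 0.20 and mt-Nd6 from -0.18 to 0.0031. For training in old rats, mt-Nd3 ran from -0.12 to 0.25, mt-Nd4 from -0.024 to 0.059, mt-Nd4l from -0.11 to 0.0065, mt-Nd5 from -0.027 to 0.099 and mt-Nd6 from -0.078 to 0.056. For the interaction, mt-Nd1 ran from -0.066 to 0.067, mt-Nd3 from -0.15 to 0.26 and mt-Nd4l from -0.036 to 0.26. Counting error was small beside the spread between libraries of a group, which was largest for mt-Nd3. Each rat gave 1 library, so differences between rats and between library preparations cannot be told apart.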

Other observations

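Ratios between members, formed within a library, restate the shares given above as quotients and are no separate measurement. They were chosen after the levels had been seen, and no test was made of them. Only young trained rats were set against all other groups. The count of mt-Nd1, the subunit at the quinone site, was 1.70, 1.95, 1.52 and 2.13 times that of mt-Nd5, a distal pump subunit, in young trained rats. In the 12 libraries of the other groups this ratio ran from 1.30 to 1.55, so young trained replicate 3 lay within their range and the other young trained rats above it. The mean was 1.42 ± 0.0275 in young sedentary, 1.82 ± 0.268 in young trained, 1.36 ± 0.0469 in old sedentary and 1.46 ± 0.0969 in old trained rats (SD, n = 4 each).

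mt-Nd4l and mt-Nd4 share a messenger, and the split of reads between them is uncertain. Their ratio ran from 4.83% to 5.86% over the 16 libraries. The mt-Nd4l count was 5.19 ± 0.232% of the mt-Nd4 count in young sedentary, 5.30 ± 0.414% in young trained, 5.42 ± 0.345% in old sedentary and 5.19 ± 0.245% in old trained rats (SD, n = 4 each). mt-Nd6 and mt-Nd5 lie next to each other on opposite strands. The mt-Nd6 count was 22.0 ± 0.351% of the mt-Nd5 count in young trained rats, with each rat between 21.6% and 22.5%, and between 18.5% and 21.4% in the other 12 libraries. The mt-Nd3 count ran from 9.98% of the mt-Nd1 count in young trained replicate 4 to 32.1% in old sedentary replicate 1.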
